A study of Drosophila melanogaster with 2 samples.

Results

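The nuclear-encoded genes of the respiratory chain and ATP synthase were examined for binding of CG6813 in Drosophila melanogaster embryos. The genes were chosen by symbol: protein-coding genes on the nuclear chromosome arms whose symbol starts with ND- (complex I), UQCR (complex III), COX (complex IV) or ATPsyn (complex V, the ATP synthase), plus SdhA, SdhB, SdhC and SdhD (complex II). This rule found 84 of the 13968 protein-coding genes, 40 of them in complex I, 4 in complex II, 9 in complex III, 16 in complex IV and 15 in complex V. The rule itself used no measured value, but it was set with earlier results of these data known. Subunit genes with other names, such as levy, cype, ox and RFeSP, lie outside the rule and are treated separately.

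Binding was measured by chromatin immunoprecipitation and sequencing (ChIP-seq) with an anti-GFP antibody. The 2 samples, replicates 2 and 3 of 1 group, were whole embryos of mixed sex, aged 0 to 24 h, of a transgenic line (CG6813-GFP) that carries the protein with GFP at its C-terminus, so all cell types and stages of embryogenesis are averaged. The labels call them biological replicates. Replicate 1 and the control library were not analysed here, and read depth is unknown because the deposited lists hold no counts.

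The respiratory chain passes electrons from NADH, at complex I, and from succinate, at complex II, through complex III and cytochrome c to oxygen at complex IV, and complexes I, III and IV pump protons out of the mitochondrial matrix. The ATP synthase lets the protons return and makes ATP. Most subunits are encoded in the nucleus and a few core ones in mitochondrial DNA, so the nuclear genes have to be expressed broadly and in balance. The fly genome also carries copies of several subunit genes, named with a final L, many of which are known for testis-biased expression. CG6813 is a zinc finger protein of the ZAD family, a large insect family of DNA-binding proteins.

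CG6813 peaks stood at the start sites of few respiratory chain genes. A gene was called bound when a summit of the authors' thresholded list of 5012 peaks lay within 500 bp of any of its transcription start sites. Of the 84 genes, 7 were bound (8.33%, exact 95% interval 3.42 to 16.4%), against 14.8% of all protein-coding genes, a share inside that interval. The bound genes were ND-ASHI, ND-42, ND-MWFE and ND-51 of complex I, COX6B of complex IV, and ATPsynC and ATPsynE of complex V. Complex II (0 of 4) and complex III (0 of 9, upper limit 33.6%) had no bound gene. In the pooled list of 30000 regions, which also holds regions below the authors' threshold, 20 of the 84 genes had a region at a start site (23.8%, exact 95% interval 15.2 to 34.3%), against 41.4% of all protein-coding genes, a share above that interval. The intervals cover counting error only, genes are not replicates of the experiment, and no test was made of these counts because the gene list was chosen with earlier results of these data known.

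Among genes with a listed region, the share that passed the threshold was close to that elsewhere. Of the 20 respiratory chain genes with a pooled region, 7 (35.0%) were bound, and of the 5777 protein-coding genes with one, 2063 (35.7%) were. The regions themselves ranked somewhat lower than those of other genes. The strongest promoter region of the 20 genes had a median signal of 88.8 and a median rank of 10614, against a median signal of 104.5 and a median rank of 8224 over all protein-coding genes with a pooled region. Among bound genes the median signal was 218.7 in the 7 respiratory chain genes and 255.5 in all 2063. Signal here is the value per region that the authors deposited, and it is compared only within a list.

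**Figure D1:**
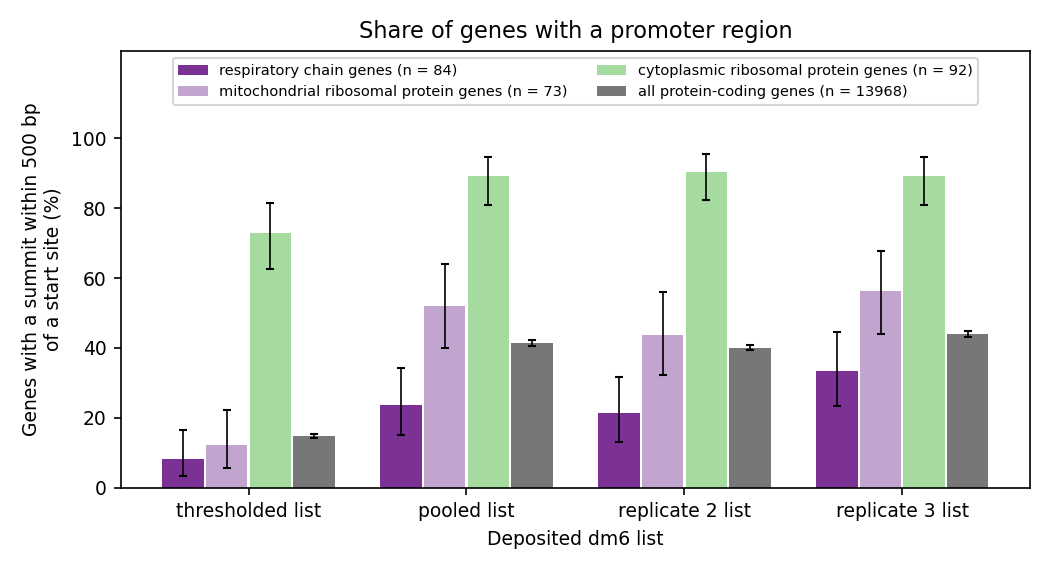
Share of genes with a summit within 500 bp of a start site in each deposited list, with exact 95% binomial intervals as error bars, for respiratory chain genes, mitochondrial and cytoplasmic ribosomal protein genes and all protein-coding genes. The respiratory chain bar is the lowest in each of the 4 lists, at 8.33% in the thresholded and 23.8% in the pooled list.

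Genes of the mitochondrial and the cytoplasmic ribosome, which like the respiratory chain are needed in most cells, had larger shares. Of 73 mitochondrial ribosomal protein genes, 9 (12.3%) were bound and 38 (52.1%) had a pooled region. Of 92 genes whose symbol starts with RpL or RpS, the cytoplasmic ribosomal protein genes, 67 (72.8%) were bound and 82 (89.1%) had a pooled region. The difference between the groups was not tested.

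The strongest peak at these 7 genes stood between ND-ASHI and Fum1. ND-ASHI (X, 6677262 to 6679118, minus strand) encodes an accessory subunit of the membrane arm of complex I, and Fum1 encodes fumarase, the enzyme of the citric acid cycle that turns fumarate into malate. The genes are divergent, with start sites 522 bp apart, and the summit lay 256 bp upstream of ND-ASHI and 266 bp upstream of Fum1, almost in the middle. Its signal was 847 in the pooled list (rank 208), 648 in replicate 2 (rank 161) and 198 in replicate 3 (rank 374). The summits of both replicates lay within the gap, 258 bp and 248 bp upstream of ND-ASHI. The next best rank of a respiratory chain gene in any list was 1261, that of ATPsynC in replicate 3.

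Of the other bound complex I genes, ND-42 and ND-51 also stood at divergent promoters. ND-42 (3R, 22027709 to 22029393, plus strand) encodes an accessory subunit, and its neighbour Cchl encodes the lyase that attaches heme to cytochrome c. The pooled summit lay 198 bp upstream of ND-42 and 31 bp upstream of Cchl, with signals of 238 in the pooled list (rank 2309), 160.5 in replicate 2 (rank 2408) and 73.2 in replicate 3 (rank 2871). The strongest summit moved between the replicates: it was 39 bp upstream of ND-42 in replicate 2 and 234 bp upstream in replicate 3, and replicate 3 had a second, weaker summit 16 bp upstream with a signal of 33.6. ND-51 (2L, 6060842 to 6062757, minus strand) encodes the core subunit that binds NADH and flavin. Its summit lay 175 bp upstream of ND-51 and 57 bp upstream of CG13994, with signals of 219 in the pooled list (rank 2671), 134 in replicate 2 (rank 3148) and 87.3 in replicate 3 (rank 2002).

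The 3 summits of complexes IV and V, in contrast, lay on the start site of the respiratory chain gene itself, within 5 bp. COX6B (X, 19740537 to 19744335, minus strand) encodes a peripheral subunit of cytochrome c oxidase facing the intermembrane space. Its summit, 5 bp upstream, had signals of 198 in the pooled list (rank 3169), 114 in replicate 2 (rank 3987) and 83.4 in replicate 3 (rank 2202). COX6B shares its start site with CG18809, and the divergent genes CG33932 and Rpp20 start 96 bp away. Rpp20 encodes a subunit of ribonuclease P. The peak cannot be assigned to COX6B alone. ATPsynE (3R, 14326947 to 14327735, plus strand) encodes subunit e of the membrane part of the synthase. Its summit lay 2 bp downstream of the start site, with signals of 167 in the pooled list and 133 in replicate 2.

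The bases under or beside these 5 summits that lie outside annotated exons are as follows. They are given 5′ to 3′ on the strand of the named gene, from the RefSeq assembly of the dm6 build. They are shown so that the intergenic bases under each peak can be read beside its values, and capitals mark matches, on either strand, to a set of 9 short motifs.
ND-ASHI to Fum1, chrX:6679294-6679453, minus strand: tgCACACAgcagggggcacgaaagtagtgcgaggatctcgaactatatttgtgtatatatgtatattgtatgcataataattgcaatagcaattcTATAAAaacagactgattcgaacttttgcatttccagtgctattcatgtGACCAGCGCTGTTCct
ND-42 to Cchl, chr3R:22027481-22027640, plus strand: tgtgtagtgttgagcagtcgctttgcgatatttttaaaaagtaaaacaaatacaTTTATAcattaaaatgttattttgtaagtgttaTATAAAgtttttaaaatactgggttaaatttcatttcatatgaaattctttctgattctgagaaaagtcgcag
ND-51 to CG13994, chr2L:6062829-6062988, minus strand: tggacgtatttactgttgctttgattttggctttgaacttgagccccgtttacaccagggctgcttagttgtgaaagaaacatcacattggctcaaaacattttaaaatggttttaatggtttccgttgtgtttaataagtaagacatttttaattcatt
COX6B to Rpp20, chrX:19744336-19744430, minus strand: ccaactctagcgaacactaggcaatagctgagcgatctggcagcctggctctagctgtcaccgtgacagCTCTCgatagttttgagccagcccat
upstream of ATPsynE, chr3R:14326799-14326946, plus strand: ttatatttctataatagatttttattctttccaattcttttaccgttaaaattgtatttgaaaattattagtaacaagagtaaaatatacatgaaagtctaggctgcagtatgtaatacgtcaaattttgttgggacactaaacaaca
The summit is base 80 of the ND-ASHI sequence, base 31 of ND-42, base 57 of ND-51 and base 91 of COX6B, while that of ATPsynE lies past the last base shown, 2 bp into the gene. The window of ND-ASHI held a CA repeat, a TATA box and overlapping matches to Ohler motif 7, a core promoter motif. That of ND-42 held a pair of TATA boxes, 1 on each strand, that of COX6B 1 GAGA repeat, and those of ND-51 and ATPsynE none of the motifs. GC content ranged from 25.0% at ATPsynE to 54.7% at COX6B, and no motif was found in all 5 windows.

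ATPsynE was the bound gene on which the replicates differed most in favour of replicate 2. In replicate 3 its strongest region lay 490 bp upstream (signal 39.7, rank 9049), and the region at the start site, 9 bp upstream, had a signal of 38.2 and a rank of 9686, against rank 3195 in replicate 2. The nearest other gene, Afti, which encodes a protein of clathrin-mediated transport, is divergent and starts 258 bp away. ATPsynC went the other way. This gene (3R, 31216145 to 31219630, minus strand) encodes the c subunit, whose copies form the rotor ring in the membrane. Its summit lay 5 bp downstream of a start site in the pooled list and in both replicates alike, with a signal of 189.9 in the pooled list, 79.5 in replicate 2 (rank 6698) and 110.5 in replicate 3 (rank 1261). ATPsynC was the bound gene with no protein-coding neighbour at its peak. The microRNA gene mir-4949 and 2 further ncRNA entries on the same strand started within 500 bp of it.

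ND-MWFE completed the bound complex I genes. It lies on arm 2R (13158666 to 13160190, plus strand) and encodes an accessory subunit that is needed for an active complex in mammalian cells. Its peak resembled those of ND-42 and ND-51 in position, with a summit 187 bp upstream of ND-MWFE and 34 bp upstream of the divergent gene TppII, which encodes tripeptidyl-peptidase II. The signal was 229.8 in the pooled list (rank 2438), 162 in replicate 2 (rank 2369) and 61.4 in replicate 3 (rank 3952). Summits in the replicates lay 203 bp and 188 bp upstream. The sequence of this arm is not shown here.

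**Figure D2:**
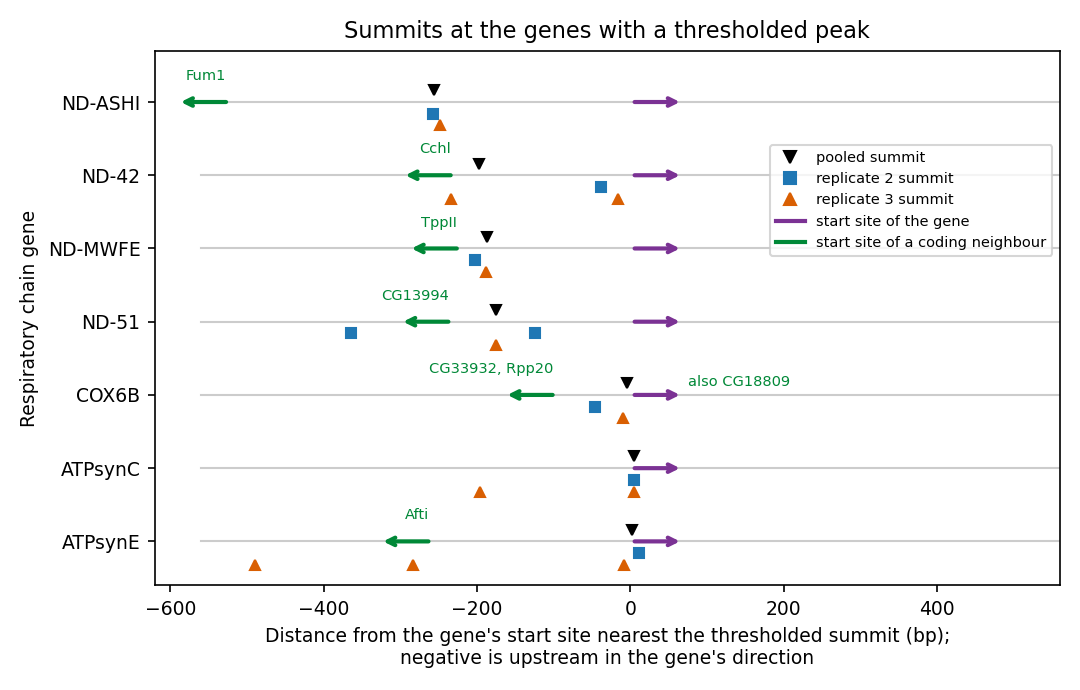
Summits near the 7 bound genes against distance in bp from the start site nearest the thresholded summit, with pooled summits as black triangles, replicate 2 as blue squares, replicate 3 as orange triangles, and the start sites of protein-coding neighbours as green arrows. At the 4 complex I genes the pooled summit lies 175 to 256 bp upstream, in the gap to a divergent neighbour, while at COX6B, ATPsynC and ATPsynE it lies within 5 bp of the start site.

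The bound genes shared their peaks with neighbours. A start site of another gene lay within 500 bp of the summit at all 7 bound genes, and of another protein-coding gene at 6. In 3 cases, ND-42, ND-51 and ND-MWFE, the neighbour's start site was the nearer one. Sharing itself was not counted over all bound protein-coding genes, so the counts of 7 and 6 have no share to stand beside. With each summit assigned only to the protein-coding gene with the nearest start site, 4 of the 84 genes (4.76%) were bound, against 12.1% of all protein-coding genes. This assignment kept 4 of the 7 bound respiratory chain genes, against 1685 of the 2063 bound protein-coding genes. The difference was not tested. Divergent arrangement was frequent in the group as a whole: 39 of 84 respiratory chain genes (46.4%) and 29.6% of all protein-coding genes were divergent. Here that means an oppositely directed gene starting at most 500 bp upstream of any start site of the gene. It held for 6 of the 7 bound and 33 of the 77 unbound respiratory chain genes, against 905 of 2063 bound and 3230 of 11905 unbound protein-coding genes. ND-ASHI, among the 6, met this definition at another of its start sites and not at its peak, since Fum1 starts 522 bp away.

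Below the threshold, 13 respiratory chain genes had a pooled region at a start site. Their signals ran from 48.0 to 103.4, while the lowest thresholded peak had 145.7 and the lowest bound respiratory chain gene, ATPsynE, 167. Highest was COX7AL2, a copy of the cytochrome oxidase gene COX7A, with 103.4 in the pooled list. Its pooled summit lay 315 bp inside the gene. The strongest region of replicate 2 there had 121 and lay 465 bp inside, while that of replicate 3 had 22.2 and lay 11 bp upstream. ND-B22, an accessory complex I subunit, had 93.0 in the pooled list, 38.1 in replicate 2 and 57.3 in replicate 3, and ND-MNLL, another, had 89.2, 69.1 and 48.4 in the same lists, with the replicate 3 summit further upstream, at 353 bp. ND-B22 had no neighbour at its summit, 36 bp past its start site. The ND-MNLL summit was shared with p115, which encodes a tether of transport vesicles and has the nearer start site. It was also shared with the protein-coding gene CG45089, which has the same start site as ND-MNLL.

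SdhC, which encodes a membrane anchor of succinate dehydrogenase, was the sole complex II gene with a pooled region, at a signal of 88.4. Its summit lay 479 bp upstream, 81 bp inside the divergent growth regulator gene Tctp, and replicate 3 had no region there. In complex V, ATPsynG (79.3), ATPsynCF6 (65.7) and ATPsynF (60.0), all of them subunits of the membrane part or the peripheral stalk, had weak pooled regions, each with a divergent protein-coding neighbour. ATPsynF had no region in replicate 2 and ATPsynCF6 none in replicate 3. COX4, ND-PDSW and ND-B17.2 had pooled signals of 77.4, 68.4 and 61.0 and were absent from replicate 2. The other 3 were ND-23 (55.1), which was absent from replicate 3, COX7C (52.1) and ATPsyngamma (48.0), the last with no region in either replicate. Of these 13 genes, 9 shared their strongest region with a protein-coding neighbour, among them ND-PDSW with msl-2, a dosage compensation gene, and the other 4, ND-B22, COX4, COX7AL2 and COX7C, shared it with none. The strongest pooled summit of each of the 13 genes lay within 50 bp of the gene's own start site in 4 cases. ND-B17.2, not among them, had a second pooled summit 3 bp past its start site, with a signal of 59.9. Sharing was not counted over all protein-coding genes with a pooled region.

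**Figure D3:**
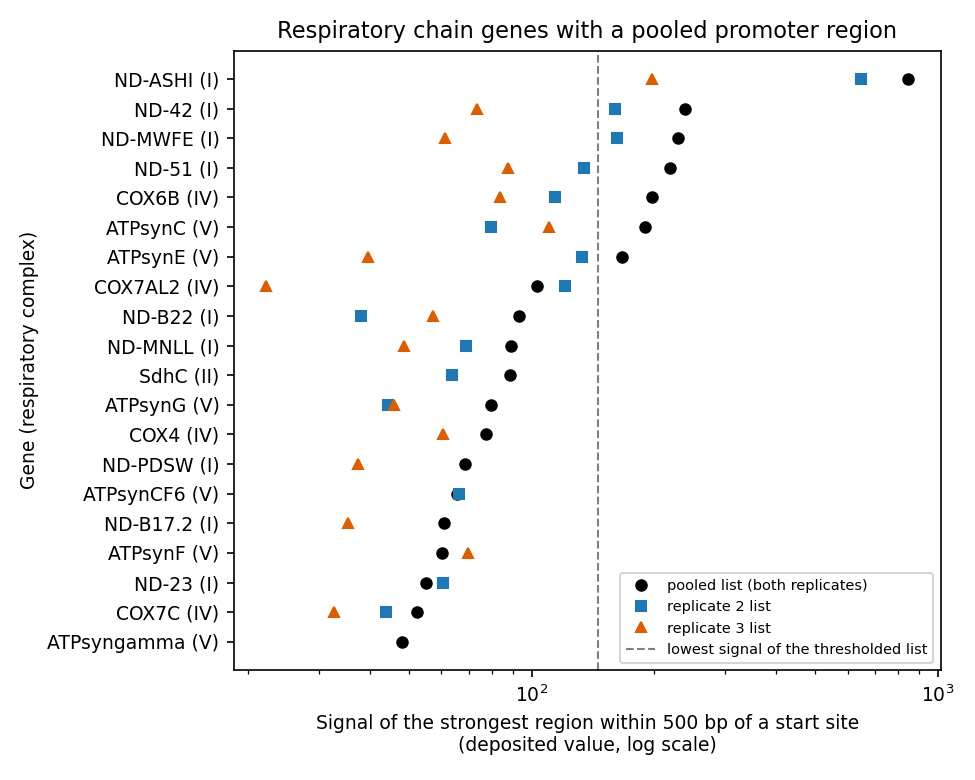
Deposited signal (log scale) of the strongest region within 500 bp of a start site for the 20 respiratory chain genes with a pooled region, in the pooled list (circles), replicate 2 (squares) and replicate 3 (triangles). A missing symbol means that the list held no such region, and the dashed line marks 145.7, the lowest signal of the thresholded list, which applies to the pooled values only. ND-ASHI stands apart at 847, and the other 6 bound genes lie between 167 and 238.

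The replicates listed partly different regions. In replicate 2, 18 of the 84 genes (21.4%) had a region at a start site, against 40.1% of all protein-coding genes. In replicate 3, 28 (33.3%) had one, against 43.9%. Both replicates had one at 13 genes (15.5%), against 32.2%. Replicate 3 alone had one at 15 (17.9%), against 11.8% of all protein-coding genes, and replicate 2 alone at 5 (5.95%), against 7.95%. Of the genes listed in replicate 3 and not in the pooled list, which numbered 12, COX5A had the highest signal, 64.6 (rank 3600) with a summit 5 bp past its start site, followed by SdhB, the iron-sulfur subunit of complex II, with 51.4 and a summit 79 bp upstream. COX7A and ATPsynB had regions 5 bp and 2 bp from the start site with signals of 39.2 and 25.5. No region at COX5A, SdhB, COX7A or ATPsynB was listed in replicate 2.

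Among as many of the strongest regions of each replicate as the thresholded list holds, replicate 2 gave 7 genes (8.33%), against 14.2% of all protein-coding genes, and replicate 3 gave 10 (11.9%), against 16.1%. The genes named by replicate 3 in this way included COX4, COX5A, ATPsynF and ND-B22, which were not bound, and left out ATPsynE. Those of replicate 2 included COX7AL2 and left out ATPsynC. The 5 genes ND-ASHI, ND-42, ND-51, ND-MWFE and COX6B had thresholded peaks that were among the strongest regions of both replicates (5.95%, against 11.3% of all protein-coding genes).

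**Figure D4:**
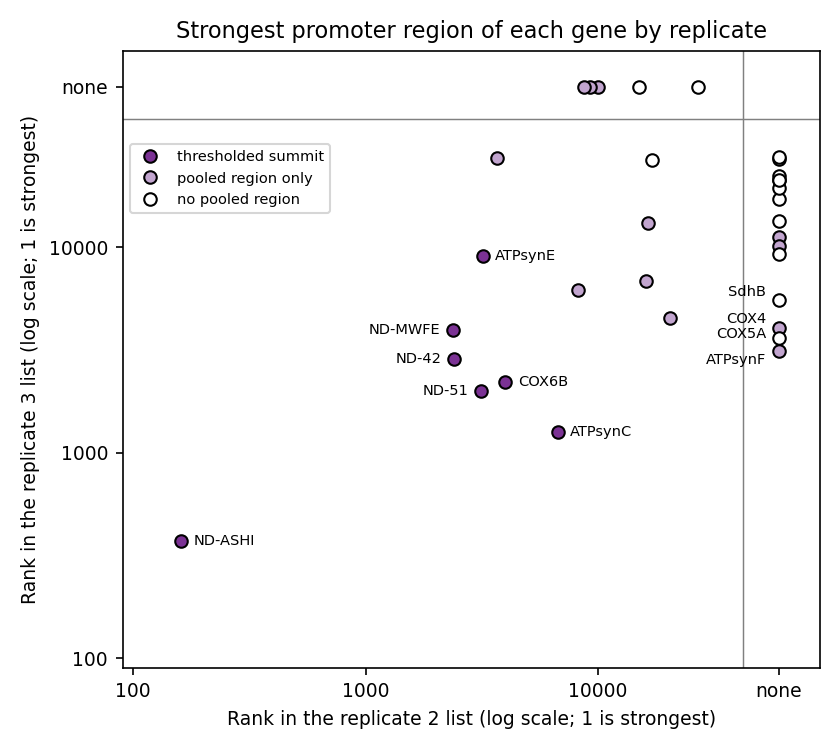
Rank of the strongest promoter region of each respiratory chain gene in replicate 2 (x axis) and replicate 3 (y axis), both on log scales with 1 the strongest, filled dark for bound genes, light for genes with only a pooled region and white for genes with neither. Points beyond the grey lines had no region in that replicate. ND-ASHI ranks 161 and 374, and COX4, COX5A, ATPsynF and SdhB rank between 3116 and 5546 in replicate 3 with no region in replicate 2.

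No region was listed at a start site of 50 of the 84 genes (59.5%) in any of the 4 lists, against 47.4% of all protein-coding genes. All 9 complex III genes were among them, from UQCR-C1 and UQCR-C2, the large core subunits, to the small UQCR-6.4, UQCR-11, UQCR-14 and UQCR-Q, as were SdhA and SdhD of complex II and the catalytic and central stalk genes ATPsynbeta and ATPsyndelta. So were ND-75, which encodes the largest core subunit of complex I, and the acyl carrier protein gene ND-ACP. Over all 84 genes, bound ones included, a median of 7159 bp separated a start site from the nearest thresholded summit. The same distance was not computed for all protein-coding genes. An unlisted gene is one without a region among the strongest 30000, which does not show that CG6813 was absent from it.

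Copies of subunit genes were counted separately. Of the 17 genes whose symbol is that of another member followed by L and an optional digit, 0 were bound (upper limit 19.5%) and 1, COX7AL2, had a pooled region. Of the other 67 genes, 7 (10.4%) were bound and 19 (28.4%) had a pooled region. Of all protein-coding genes 14.8% were bound, a share below that upper limit, and 41.4% had a pooled region. COX6AL, COX6AL2, COX6CL and ATPsynepsilonL count among the 67, since the genes they resemble carry other names.

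A gene with more start sites is covered by more windows. Respiratory chain genes had a single annotated start site in 59.5% of cases, against 73.5% of all protein-coding genes. Among genes with a single start site, 2 of 50 respiratory chain genes were bound and 5 had a pooled region, against 9.82% and 32.8% of all such protein-coding genes. With 2 start sites, 3 of 29 respiratory chain genes (10.3%) were bound and 12 (41.4%) had a pooled region, against 22.7% and 58.2%. With 3 or more, 2 of 5 were bound, close to the 41.7% of all such protein-coding genes, and 3 had a pooled region, against 81.0%. Counting the most upstream start site only left the same 7 genes bound (8.33%), against 12.3%. Respiratory chain genes were shorter, with a median length of 1097 bp, against 2164.5 bp.

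The other genes of oxidative metabolism, taken from a list of 45 of which 42 were found in the annotation, were bound in 8 cases (19.0%) and had a pooled region in 20 (47.6%), against 14.8% and 41.4% of all protein-coding genes. With each summit assigned only to the protein-coding gene with the nearest start site, 3 of the 42 were bound (7.14%), against 12.1%, so the order of the shares turned with the assignment. The peak at Fum1, among the 8, is the one at ND-ASHI. Of 11 carriers, copies and subunits with other names, Cyt-c-d was bound, and of 9 assembly factors, CIA30 and Cox17 were. Of 10 genes of mitochondrial DNA maintenance and transcription, TFAM and mtSSB were bound, and of 9 citric acid cycle genes, Fum1 and Idh3g were. The TFAM peak had a pooled signal of 147.8 (rank 4899), near the lowest thresholded signal of 145.7. Its summit lay 22 bp from the start of TFAM and 21 bp from that of CG5412. Of 3 nuclear regulators Dref was bound, by the peak 3 bp from the start of RpL13. The strongest was at CIA30, which encodes an assembly factor of complex I, with 1238 in the pooled list, 959 in replicate 2 and 278 in replicate 3, and a summit 135 bp upstream that lay nearer to CG7601. Cyt-c-d, the cytochrome c gene known for its role in spermatogenesis, had 875 in the pooled list, 623 in replicate 2 and 259 in replicate 3, but its summit lay 378 bp inside the gene and 144 bp from the start of CG31808. Idh3g, a subunit of the NAD-dependent isocitrate dehydrogenase, had 848 in the pooled list.

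The 9 motifs were searched for within 150 bp of any start site, on both strands, as exact letters where they are spelled out and otherwise by consensus. The GAGA repeat (GAGAG) stood at 4 of the 7 bound and 24 of all 84 respiratory chain genes (28.6%), against 52.1% of bound and 37.1% of all protein-coding genes. DRE (TATCGATA), the site of the transcription factor Dref, stood at 2 of the 7 and 10 of the 84 (11.9%), against 10.8% of bound and 9.17% of all protein-coding genes. The E-box (CAGCTG) stood at 3 of the 7 and 28 of the 84 (33.3%), against 33.5% of bound and 22.5% of all. The CA repeat (CACACA) stood at 2 of the 7 and 20 of the 84 (23.8%), against 40.6% of bound and 26.9% of all protein-coding genes. The TATA box (TATAAA) stood at 2 of the 7 and 36 of the 84 (42.9%), against 46.0% of bound and 45.2% of all.

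Core promoter motifs named after Ohler were found at 1 of the 7 bound genes each. Over all 84 genes, Ohler motif 1 stood at 14 (16.7%), against 5.53% of bound and 4.57% of all protein-coding genes. Motif 6 stood at 6 (7.14%), against 2.91% and 2.20%, and motif 7 at 15 (17.9%), against 15.2% and 10.3%. The nuclear respiratory gene (NRG) element, described in fly genes of mitochondrial function, matched at 1 of the 84 genes, ATPsynC (1.19%), against 0.485% of bound and 0.172% of all protein-coding genes. No spelled motif contains another, though matches can overlap, and genes with more start sites were searched over more bases. These are counts of letters, not of sites in use.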

How the data were processed

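ChIP-seq region lists of CG6813-GFP in whole embryos (1 group, 2 replicates) were analysed. A file listing deposited beside them describes the pooled and per-replicate lists as input to an irreproducible discovery rate (IDR) analysis, names the thresholded list its optimal set, and gives a control as the background of the calls. Per the labels, chromatin was sonicated to 200 to 800 bp. Aligner, caller and cutoff were not given in the sources used here. The authors deposited a signal value per region, of unstated normalization, which was used only to describe and rank regions within a list. Depth is unknown, so no count-based interval was possible. The dm3 lists were not used.

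The thresholded list held the 5012 strongest regions of the pooled list. The pooled list gave 96.9% of its regions the same width of 420 bp, with the summit at the centre, so edges carry little information. Start sites came from the BDGP6.54 annotation (Ensembl release 115), without transposable elements, and all coordinates are dm6, 1-based. Sequence came from the matching RefSeq assembly, in which 193 of 193 annotated start codons of the respiratory chain genes read ATG. The distance of 500 bp, the motifs and the alternatives were set with earlier results of these data known, as were the gene lists, and no statistical test was made. The text names every bound gene, the 10 strongest with only a pooled region and all genes sharing a bound gene's peak. Other genes, such as those listed in replicate 3 alone, those in no list and the strongest of the further metabolic genes, were chosen after their values were seen. Intervals are exact (Clopper-Pearson). The search was checked on simulated summits. Python 3.11.15, SciPy 1.17.1 and matplotlib 3.10.9 were used.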

Additional observations from a re-analysis of the deposited data

How the results depend on the processing

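The thresholded count was 7 of 84 genes as reported. It changed by less than 1.5 times with start sites within 200 bp or 1000 bp, with peaks strong in both replicates, with the most upstream start site, with peak overlap in place of the summit and without the copies named with L, with counts between 5 and 9. Within 1000 bp COX7AL2 and UQCR-6.4L were added. With the stronger part of the thresholded list, 2506 peaks, 3 genes were bound (ND-42, ND-ASHI and ND-MWFE), against 8.52% of all protein-coding genes. With the nearest protein-coding gene alone, 4 were. Leaving out 1 replicate meant taking the other's own list, with no new thresholding or pooling. The strongest 5012 regions of that list gave 7 to 10 genes and the whole list 18 to 28, the counts already given above. The pooled count of 20 came to 31 genes (36.9%, against 50.5%) within 1000 bp, and to 15 to 19 within 200 bp, with the most upstream start site or without the copies. The share of respiratory chain genes lay below that of all protein-coding genes in every one of these settings, thresholded and pooled. The median pooled signal was 88.8 at 500 bp, 89.2 at 200 bp and 88.4 at 1000 bp. No paired analysis was possible because there is 1 group and no test. Unknown depth limits what an unlisted gene can show.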

Other observations

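None of the 19 respiratory chain genes on arm 3L had a pooled region at a start site, against 43.4% of all protein-coding genes on that arm. On 2R and X, 3 of 17 and 3 of 12 respiratory chain genes had one, against 42.4% and 41.0%, and on arm 4, 0 of 2, against 16.3%. On 2L and 3R, 7 of 16 and 7 of 18 had one, against 38.6% and 42.1%. On 3L the replicate lists held regions at 3 respiratory chain genes each. Among the 19, UQCR-11, ND-AGGG and ND-MLRQ lay 387687, 243232 and 60119 bp from the nearest pooled summit. The 19 also include the copies ND-24L, ND-B14.5AL, UQCR-6.4L, ATPsynCF6L and ATPsynbetaL. The arm was singled out after the values were seen, and the difference was not tested.

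Thresholded peaks inside respiratory chain genes, away from their own start sites, were found in 3 of the 84 genes, and pooled regions in 5. Genes with such peaks were not counted over all protein-coding genes. ND-15, whose annotated span of 41305 bp holds other genes, contained 3 thresholded peaks with signals of 253, 220.3 and 211, the first 67 bp from the start of Gs1, a glutamine synthetase gene. ND-39 contained 2, with 249.6 and 209, the first 72 bp from the start of ZnT77C, a zinc transporter gene. COX7AL2 contained 2, with 250.7 and 183, at 616 bp and 1142 bp from its own nearest start site, which was also the nearest of any gene.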
